A study of Drosophila melanogaster with 8 samples.

Results

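The 10 genes described here act in the piRNA pathway or in germ plasm, the specialised cytoplasm from which the germ cells of the fly arise. They are *vas*, *tud*, *krimp*, *spn-E*, *mael*, *piwi*, *aub*, *fs(1)Yb*, *armi* and *zuc*, and they were chosen by name as 10 of the 14300 genes in a table of RNA-seq read counts. Of these, 9 stood in the table under their own symbols, and *zuc* was found under its older symbol CG12314. The count of each gene was compared between wing imaginal discs of *Myb* mutant larvae and of control larvae of *Drosophila melanogaster*.

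piRNAs are small RNAs that guide PIWI proteins to the transcripts and loci of transposons, which they silence in the gonad. Long precursor RNAs are cut at the outer surface of mitochondria, where the nuclease Zuc acts. In germ cells, further piRNAs are made by reciprocal slicing in nuage, a cytoplasmic structure around the nucleus that holds Vasa and many Tudor-domain proteins. In the somatic cells of the ovary, which lack this slicing cycle, precursors are handled in Yb bodies, and Piwi carries the finished piRNAs into the nucleus. Most of these genes are known for their work in the gonad. In *Drosophila*, loss of *l(3)mbt*, a partner of the Myb-containing dREAM complex, is known to bring germline genes such as *nos*, *vas*, *piwi* and *aub* into larval brain tumours.

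Polyadenylated RNA had been sequenced from mesothoracic wing discs of male larvae in the third instar. The control group was the line yw67, with 3 libraries. The *Myb* mutant group carried the null allele MH107, with 5 libraries. This allele came from mobilisation of a P element, deletes the start of *Myb* and also takes out its neighbour *AlkB*, and had been outcrossed into the control line. *Myb* lies on the X chromosome, so the mutant males carried no other copy, and they were picked by the absence of a GFP marker. Mutant animals die in the third instar or as pupae. No group lacked *AlkB* alone, so that in these libraries the effects of *Myb* and of *AlkB* cannot be told apart, although the methods call *AlkB* non-essential and state that a *Myb* cDNA rescued the mutant phenotypes. The labels disagreed on replication. Their protocol called the libraries 3 and 5 biological replicates, whereas the sample descriptions placed all control libraries in 1 biological replicate and the mutant libraries in 2, with mutant library 1 alone in one of them. The p-values given here measure the spread between these libraries, which may be technical.

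The libraries held 50562199 to 65322440 counts, and levels are given as CPM, a gene's count scaled to a fixed library total. *Myb* stood at 302, 295.3 and 304.9 CPM in the control libraries and at 4.56 to 7.24 CPM in the mutant libraries, and *AlkB* had 0 counts in all 5 mutant libraries. Control library 2 stood apart from the other control libraries: over genes, the coefficient of variation of the controls had a median of 9.71%, and of 4% without it. All 17 wing disc genes looked at (among them *vg*, *nub* and *ap*) were measured, with a summed level of 2609 to 3056 CPM in control and 3022 to 3123 CPM in mutant libraries. Of these, 4 rose (*salm*, *dpp*, *ptc* and *tsh*), each by less than 2-fold, and none fell. This is 23.5% called, beside 34.4% of all tested genes. The call of *salm* was lost without control library 1 or mutant library 1, 2, 3 or 5, and without control library 3 the count of higher genes was 6. Blood cell (hemocyte) genes moved with the genotype. Of 10 looked at, 9 were tested and 7 fell, which is 77.8%, beside 17.5% of all tested genes called lower. The summed level of all 10 was 997.9 to 1059 CPM in control and 629 to 861.1 CPM in mutant libraries, most of it from *Ppn*, which was not called. The 7 that fell summed to 206.1 to 288.7 CPM in control and 6.09 to 20.59 CPM in mutant libraries, and *Hml*, a gene used to mark these cells, fell from 60.7 ± 11.5 (SD, n = 3) to 1.82 ± 1.28 CPM (SD, n = 5). Their part in the results below was not tested. Since whole discs were sequenced, fewer cells of a type and less RNA per cell cannot be told apart.

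The question was which of these 10 genes differ in level when *Myb* is lost from a somatic tissue. In *Myb* mutant discs, 6 of the 10 genes rose (*fs(1)Yb*, *vas*, *piwi*, *aub*, *krimp* and *tud*), 3 fell (*spn-E*, *zuc* and *mael*), and *armi* was not called. The rises reached 23.2-fold for *fs(1)Yb* and 10.2-fold for *vas*, and the deepest fall was 6.50-fold for *spn-E*. A gene was called where its adjusted p was under 0.05 in edgeR's quasi-likelihood test, with Benjamini-Hochberg adjustment over the 9076 genes tested. By that rule 34.4% of all tested genes were called, 16.9% higher and 17.5% lower in the mutant, beside 9 of these 10. At 2-fold or more, 5 of the 10 were called, beside 7.06% of all tested genes. Of these, 4 were higher, beside 4.64%, and 1 was lower, beside 2.42%. For 9 of the 10, all mutant libraries lay on one side of all control libraries, beside 38.9% of all tested genes. The median log2 fold change of the 10 was 0.69, and that of all tested genes was 0.01. All 10 had counts in every library and passed the filter on low counts. DESeq2 also called 9 of the 10, beside 38.7% of the genes it tested. After pooling libraries that the descriptions assign to one biological replicate, 5 were called higher and 2 lower, beside 14.8% of all genes tested in that way. The 10 genes were chosen with earlier results of these data known, so none of these shares is a test of the set.

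**Figure D1:**
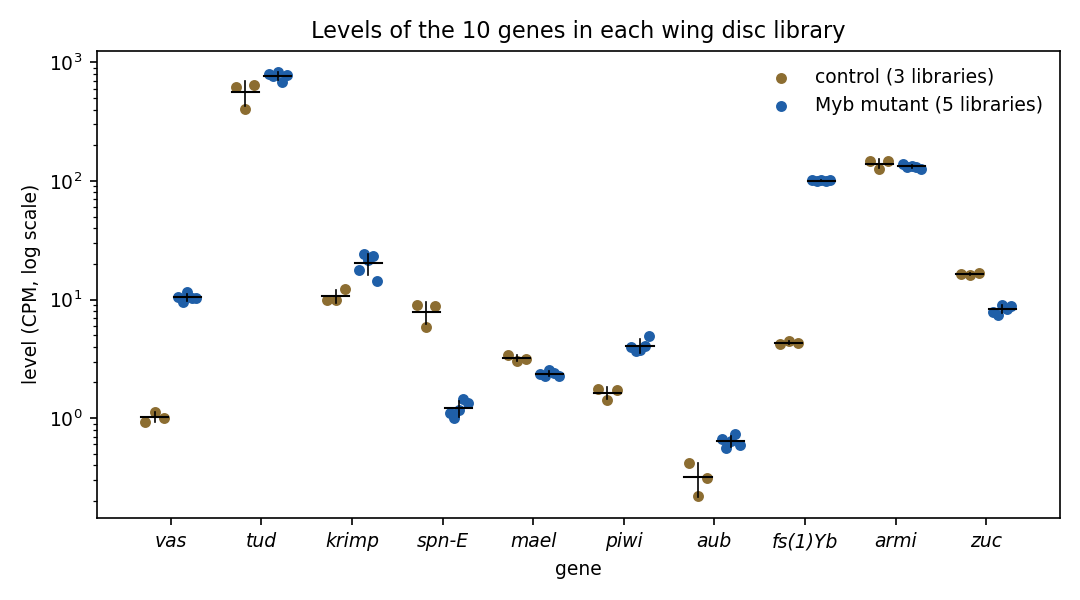
Level of each of the 10 genes in each wing disc library, in CPM on a log scale, for 3 control and 5 *Myb* mutant libraries, with horizontal bars at the group means and vertical bars of 1 SD. The groups are furthest apart for *fs(1)Yb*, *vas* and *spn-E*, and they overlap for *armi* alone.

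**Figure D2:**
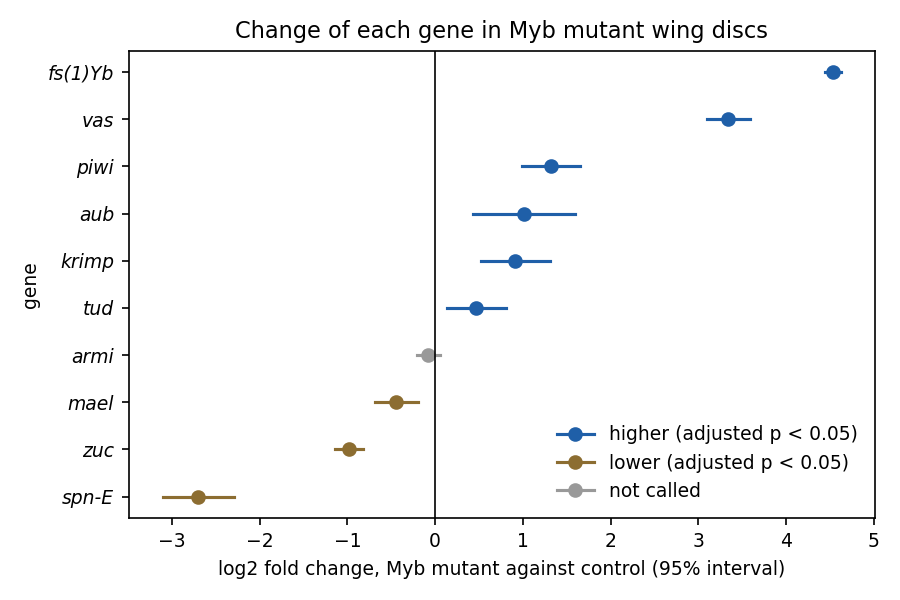
Log2 fold change of each of the 10 genes, *Myb* mutant against control, with its 95% interval from the edgeR fit on 3 control and 5 mutant libraries. The values run from -2.70 for *spn-E* to 4.54 for *fs(1)Yb*, and the interval of *armi* takes in 0.

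Among the genes of germ plasm and nuage, *vas* encodes a DEAD-box RNA helicase that is the classic marker of *Drosophila* germ cells. It lies at 2L:15061656-15074311 on the plus strand (FBgn0003970). Its level was 0.933, 1.13 and 1.01 CPM in the control libraries and 10.55, 9.51, 11.53, 10.34 and 10.23 CPM in the mutant libraries. Every mutant library stood far above every control library, and the 5 mutant libraries lay close together. The mean rose from 1.02 ± 0.10 (SD, n = 3) to 10.4 ± 0.73 CPM (SD, n = 5), a log2 fold change of 3.34 ± 0.11 (SE), with an adjusted p of 9.9e-08 in edgeR's test. The control value rested on 47 to 62 counts a library. The rise took *vas* from the 14.3 to the 29.1 percentile of tested genes by mean level, so that most tested genes still stood above it in the mutant.

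*tud* encodes a large protein with many Tudor domains, which bind methylated PIWI proteins and hold germ plasm together. It lies at 2R:21183322-21192913 on the plus strand (FBgn0003891). It was the most abundant of the 10, at 618.1, 405.5 and 648.6 CPM in the control libraries and 802.6, 772.5, 827.8, 678.9 and 779.3 CPM in the mutant libraries. The groups did not overlap, but control library 2 lay well below the other control libraries, and mutant library 4 came close to control library 3. The mean rose from 557.4 ± 132.4 (SD, n = 3) to 772.2 ± 56.5 CPM (SD, n = 5), a log2 fold change of 0.47 ± 0.15 (SE), with an adjusted p of 0.036 in edgeR's test. This call did not hold when mutant library 1, 2, 3 or 5 was left out, where the edgeR adjusted p was 0.0656, 0.0669, 0.0761 and 0.0622. It was also lost when library totals were used without TMM scaling, with an adjusted p of 0.0517. Without control library 2 the log2 fold change was 0.28, with an edgeR adjusted p of 0.0223.

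*krimp* encodes another Tudor-domain protein of nuage, which brings the PIWI proteins of the slicing cycle together. It lies at 2R:16238103-16240722 on the minus strand (FBgn0034098). Its level was 9.93, 10 and 12.2 CPM in the control libraries and 17.8, 23.98, 21.7, 23.2 and 14.3 CPM in the mutant libraries. The groups did not overlap, with mutant library 5 nearest to the controls. The mean rose from 10.7 ± 1.28 (SD, n = 3) to 20.2 ± 4.07 CPM (SD, n = 5), a log2 fold change of 0.91 ± 0.17 (SE), with an edgeR adjusted p of 0.00423.

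The 2 deepest falls were those of *spn-E* and *zuc*. *spn-E* encodes a DExH-box helicase with a Tudor domain that the slicing cycle of germ cells needs. It lies at 3R:15837419-15844415 on the plus strand (FBgn0003483). Its level was 8.94, 5.91 and 8.85 CPM in the control libraries and 1.11, 0.996, 1.16, 1.45 and 1.35 CPM in the mutant libraries. Control library 2 was the lowest control, and it was still several times above the highest mutant library. The mean fell from 7.90 ± 1.72 (SD, n = 3) to 1.21 ± 0.18 CPM (SD, n = 5), a log2 fold change of -2.70 ± 0.18 (SE), with an edgeR adjusted p of 9.1e-06. Per kilobase of exon, *spn-E* stood above *vas* in control discs and below it in mutant discs.

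*mael* encodes a protein that acts with Piwi in the silencing of transposons in the nucleus. It lies at 3L:22721203-22726234 on the plus strand (FBgn0016034). Its level was 3.42, 3.04 and 3.17 CPM in the control libraries and 2.35, 2.25, 2.54, 2.39 and 2.27 CPM in the mutant libraries. All mutant libraries lay below all control libraries, by a small step. The mean fell from 3.21 ± 0.19 (SD, n = 3) to 2.36 ± 0.12 CPM (SD, n = 5), a log2 fold change of -0.44 ± 0.11 (SE), with an edgeR adjusted p of 0.0139. With the libraries summed by described biological replicate the edgeR adjusted p was 0.183.

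The RNA of both PIWI genes among the 10 rose from low levels. *piwi* encodes the nuclear PIWI protein that silences transposons at the level of transcription, in germ cells and in the somatic cells of the gonad. It lies at 2L:10982205-10987420 on the minus strand (FBgn0004872). Its level was 1.75, 1.43 and 1.73 CPM in the control libraries and 3.96, 3.66, 3.77, 4.10 and 4.96 CPM in the mutant libraries. The lowest mutant library was above the highest control library by more than the spread within either group. The mean rose from 1.64 ± 0.18 (SD, n = 3) to 4.09 ± 0.51 CPM (SD, n = 5), a log2 fold change of 1.32 ± 0.15 (SE) or 2.50-fold, with an edgeR adjusted p of 2.2e-04.

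*aub* encodes the cytoplasmic PIWI protein of germ cells that slices transposon transcripts. It lies at 2L:10997819-11001476 on the minus strand (FBgn0000146). It had the lowest level of the 10 in both groups, at 0.417, 0.2195 and 0.314 CPM in the control libraries and 0.663, 0.564, 0.643, 0.741 and 0.595 CPM in the mutant libraries. These levels rested on 21, 12 and 19 counts in the control libraries and 30 to 42 counts in the mutant libraries. The groups did not overlap. The mean rose from 0.317 ± 0.099 (SD, n = 3) to 0.641 ± 0.068 CPM (SD, n = 5), a log2 fold change of 1.01 ± 0.26 (SE), with an edgeR adjusted p of 0.0155. The call was lost in the sums by described biological replicate, with an adjusted p of 0.169, and under a minimum mean of 1 CPM the gene was not tested. The third PIWI gene, *AGO3*, the partner of *aub* in the slicing cycle, had means of 0.161 and 0.344 CPM and was not called, with an edgeR adjusted p of 0.0534, and of 0.0235 without mutant library 4.

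The genes of piRNA production from long precursors moved in different directions. *fs(1)Yb* encodes the Tudor-domain and helicase-like protein after which the Yb bodies of ovarian somatic cells are named. It lies at X:2720468-2724158 on the plus strand (FBgn0000928). Its level was 4.21, 4.50 and 4.29 CPM in the control libraries and 101.3, 99.0, 101.6, 99.5 and 101.3 CPM in the mutant libraries. The 5 mutant libraries were nearly equal, and all of them stood above all control libraries by a wide margin. The mean rose from 4.33 ± 0.15 (SD, n = 3) to 100.5 ± 1.2 CPM (SD, n = 5), a log2 fold change of 4.54 ± 0.04 (SE), with an edgeR adjusted p of 4.9e-11. Its rank among tested genes went from the 22.5 to the 76.5 percentile. *tj*, which marks the somatic gonad cells in which *fs(1)Yb* is known to work, had 0 counts in all 8 libraries.

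*armi* encodes an RNA helicase that binds piRNA precursors in both Yb bodies and nuage. It lies at 3L:3461317-3466314 on the plus strand (FBgn0041164). Its level was 147.0, 126.7 and 146.6 CPM in the control libraries and 139.3, 131.7, 133.7, 132.2 and 127.1 CPM in the mutant libraries. All mutant libraries fell between control library 2 and the other control libraries. The log2 fold change was -0.08 ± 0.06 (SE), with a 95% interval of -0.21 to 0.05 and an edgeR adjusted p of 0.317. Without control library 2 it was called lower, at -0.15, with an edgeR adjusted p of 0.0104. The protein-coding gene *CG46463* overlaps exons of *armi* on the same strand. It had no entry among the counted genes, and its part in the level of *armi* was not tested.

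*zuc* encodes the mitochondrial nuclease that cuts precursors into piRNAs. It lies at 2L:11988735-11989882 on the minus strand (FBgn0032389, CG12314 in the table). Its level was 16.3, 16.0 and 16.7 CPM in the control libraries and 7.92, 7.39, 8.99, 8.36 and 8.76 CPM in the mutant libraries. The groups were well apart, and each was tight. The mean fell from 16.3 ± 0.35 (SD, n = 3) to 8.28 ± 0.65 CPM (SD, n = 5), a log2 fold change of -0.98 ± 0.07 (SE), with an edgeR adjusted p of 1.6e-05. Thus the gene for the Yb body protein rose, that for the nuclease of the same route fell, and that for the helicase between them was not called.

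To compare the genes with one another, levels were divided by the exon length of each gene. On this scale of CPM per kilobase, the order in control discs was *tud* at 63.1, *armi* at 33.7, *zuc* at 14.2, *krimp* at 4.2, *spn-E* at 1.69, *mael* at 1.49, *fs(1)Yb* at 1.24, *piwi* at 0.532, *vas* at 0.449 and *aub* at 0.105. Of neighbours in that order, *spn-E* and *mael* overlapped over the libraries, as did *piwi* and *vas*. In mutant discs the order in CPM per kilobase was *tud* at 87.5, *armi* at 31.9, *fs(1)Yb* at 28.7, *krimp* at 7.92, *zuc* at 7.21, *vas* at 4.57, *piwi* at 1.33, *mael* at 1.10, *spn-E* at 0.259 and *aub* at 0.213. There *krimp* and *zuc* overlapped, as did *spn-E* and *aub*. *tud* and *armi* led both orders, *aub* closed both, *fs(1)Yb* moved up next to *armi*, and *spn-E* moved down next to *aub*.

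**Figure D3:**
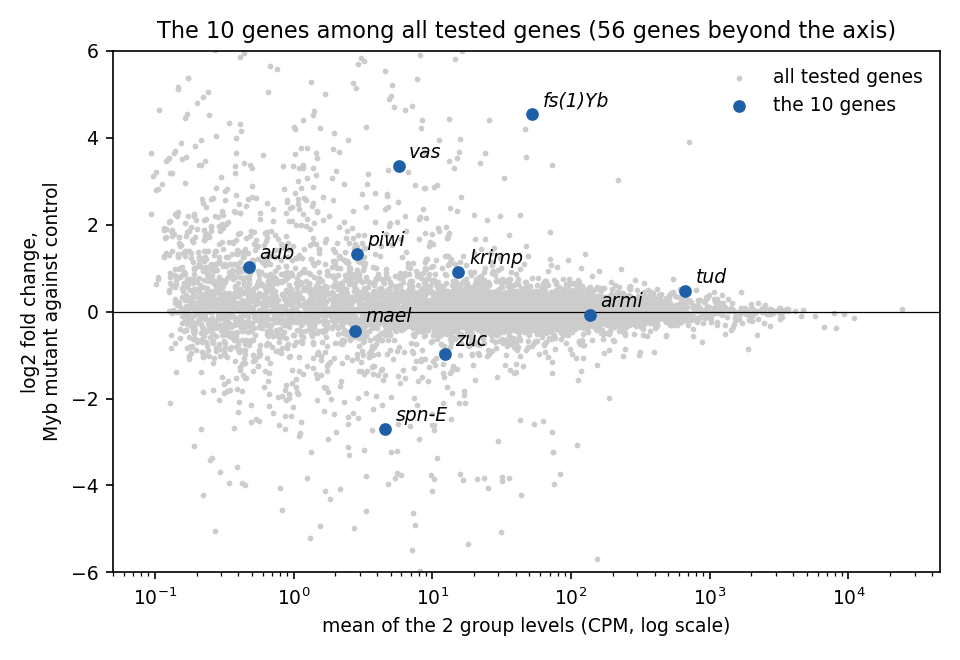
Log2 fold change, *Myb* mutant against control, of all 9076 tested genes (grey) and of the 10 genes (blue) against the mean of the group levels in CPM on a log scale, with 56 genes beyond the vertical axis. The 10 genes run from *aub* at the low end of the levels to *tud* near the high end, and the genes with the wider changes lie at low and middle levels.

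Of 23 other genes of the piRNA pathway, 22 were tested, 7 rose and 7 fell, and their median log2 fold change was 0.01, the same to 2 decimals as that of all tested genes. This is 63.6% called, beside 34.4% of all tested genes. Without control library 3 the count of higher genes was 4, and in the sums by described biological replicate 2 were higher and 4 lower. The genes that changed by 2-fold or more went both ways. *del* encodes Deadlock, a partner of Rhino in the transcription of piRNA clusters, and it stood at 15.3, 13.8 and 16.4 CPM in the control libraries and at 67.0 to 72.3 CPM, with a median of 71.4, in the mutant libraries. Its mean rose from 15.2 ± 1.28 (SD, n = 3) to 70.4 ± 2.104 CPM (SD, n = 5), a log2 fold change of 2.21 ± 0.06 (SE), with an edgeR adjusted p of 3.6e-08. *tej* encodes a Tudor-domain protein of nuage and rose from 0.415 ± 0.088 (SD, n = 3) to 2.34 ± 0.51 CPM (SD, n = 5), with an edgeR adjusted p of 1.4e-04.

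Of the same list, 3 genes fell by 2-fold or more, and for each the groups did not overlap. *vret* (CG4771 in the table) encodes a Tudor-domain protein needed for piRNA production in both germ cells and gonadal soma. It stood at 27.5, 25.3 and 27.0 CPM in the control libraries and at 6.59 to 8.26 CPM in the mutant libraries, a log2 fold change of -1.82 ± 0.07 (SE), with an edgeR adjusted p of 3.8e-07. *shu*, which encodes a co-chaperone used in loading PIWI proteins, fell from 18.1 ± 0.57 (SD, n = 3) to 6.36 ± 0.70 CPM (SD, n = 5), a log2 fold change of -1.51 and an edgeR adjusted p of 5.2e-06. *squ*, whose protein is found in nuage, fell from 14.0 ± 1.92 (SD, n = 3) to 6.33 ± 0.20 CPM (SD, n = 5), with a log2 fold change of -1.14 and an edgeR adjusted p of 2.4e-05. These 5 genes kept their calls in all 16 alternative fits.

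Other genes of that list, named after their values were seen, moved less. The paralogs of *fs(1)Yb* are *BoYb* and *SoYb*. *BoYb* had a log2 fold change of 0.66 and an edgeR adjusted p of 0.0227, which was 0.0519, 0.0562 and 0.0537 without mutant library 2, control library 1 and control library 3. *SoYb* was not called, with a log2 fold change of 0.10, which turned negative without control library 2 or mutant library 4, and an edgeR adjusted p of 0.732. Neither approached the change of *fs(1)Yb*, although these differences between genes were not tested. *arx*, which acts with Piwi in the nucleus, had a log2 fold change of -0.89 and an edgeR adjusted p of 7.5e-04, and of 0.0508 in the sums by described biological replicate. *cuff*, whose protein works with Rhino and Deadlock, had a log2 fold change of 0.62 and an edgeR adjusted p of 0.00277, and of 0.0815 in those sums. *rhi* itself had 18 counts in all control and 35 in all mutant libraries and was not tested.

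Of 22 other germ plasm and germline genes, 18 were tested, 7 rose and 3 fell, with a median log2 fold change of 0.35. This is 55.6% called. The genes that fell numbered 2 without mutant library 3, mutant library 5 or control library 3. *swa*, which acts in the placement of *bcd* mRNA in the oocyte, stood at 0.238, 0.110 and 0.066 CPM in the control libraries and at 30.1, 29.2, 30.4, 33.4 and 32.0 CPM in the mutant libraries. Its log2 fold change was 7.84 ± 0.23 (SE), with an edgeR adjusted p of 4.6e-08, and its control level rested on 22 counts in all. *exu*, which acts in the same placement, moved the other way, from 3.91, 3.46 and 3.85 CPM to 0.564 to 1.27 CPM. Its log2 fold change was -2.08, with an edgeR adjusted p of 4.2e-04, and 0.0577 in the sums by described biological replicate.

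*nos*, a translational repressor of germ cells, rose from 0.061 to 0.374 CPM, a log2 fold change of 2.58 ± 0.44 (SE), with an edgeR adjusted p of 0.00236. It rested on 10 counts in all control libraries, and in the sums by described biological replicate the edgeR adjusted p was 0.0733. *bgcn*, a partner of *bam* in germ cell differentiation, rose from 0.426 to 1.15 CPM, with an edgeR adjusted p of 6.8e-04, and of 0.0808 in those sums. *bam* itself stood at 0.226 and 0.307 CPM and was not called, with an edgeR adjusted p of 0.392. *osk*, which founds germ plasm in the oocyte, had 0 counts in the control libraries and 10 counts in all mutant libraries, in libraries 2 and 4 only, and it was not tested. Thus *nos*, *bam* and *osk* were each under 1 CPM in every library of both genotypes. Other genes of the list stood higher in both, such as *cup*, with means of 28.5 CPM in control and 52.0 CPM in mutant discs. *cup* was called higher, with a log2 fold change of 0.87 and an edgeR adjusted p of 2.9e-05. *bam* and *cup* were named after their values were seen, and the presence of germ cells was not tested.

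Genes of the gonad and of other small RNA pathways were set beside these. Of 11 genes of the gonadal soma and ovarian follicle, none passed the filter on low counts, and without that filter 1 was called higher and 1 lower. Their summed level was 0.439 to 0.561 CPM in control and 0.305 to 3.04 CPM in mutant libraries, and the highest value in any library, 1.45 CPM, was that of the yolk protein gene *Yp1* in mutant library 4. Of 8 genes of the siRNA and miRNA pathways, which work in all tissues, 1 rose (*AGO2*, log2 fold change 0.29) and 1 fell (*pasha*, -0.26), with a median of 0.03. This is 25% called, not above the 34.4% of all tested genes. The call of *pasha* was lost without mutant library 5, control library 1 or control library 3, with an edgeR adjusted p of 0.051 to 0.0768. Across the lists, the widest changes among genes of small RNA pathways were those of *fs(1)Yb*, *vas* and *spn-E*.

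**Figure D4:**
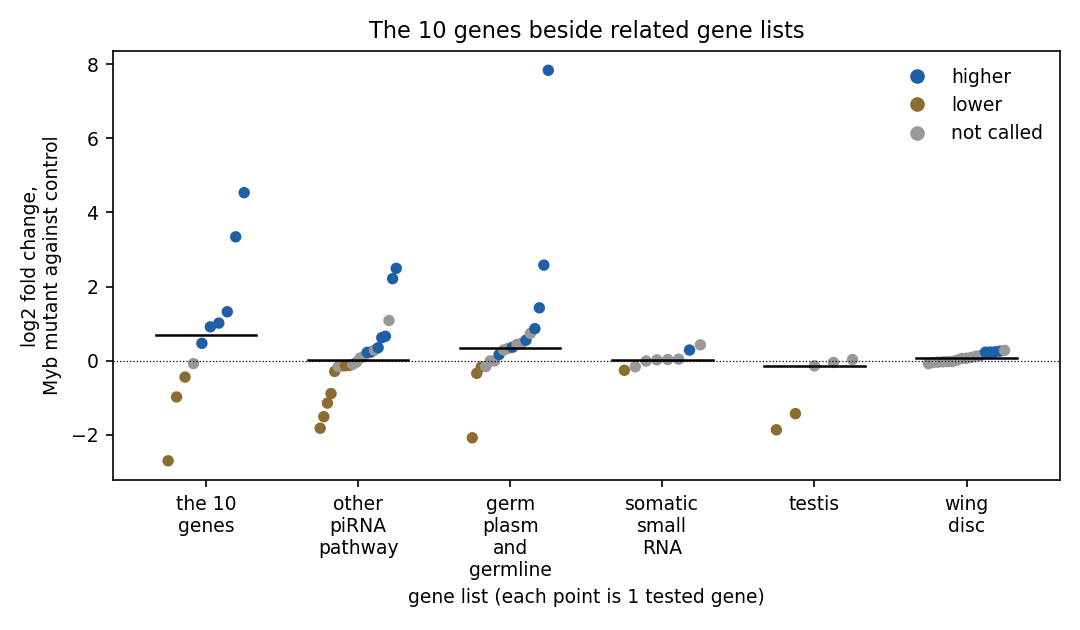
Log2 fold change, *Myb* mutant against control, of each tested gene in the set of 10 and in 5 related lists, with a horizontal bar at the median and colours for genes called higher, called lower or not called. The 10 genes have a median of 0.69, whereas the other piRNA pathway genes are spread to both sides of a median of 0.01, and the hemocyte list is not drawn.

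Neighbouring genes bear on these values, because counting was not stated to use strand. Reads in shared exons may have been given to either gene, or to neither, since the counts were of uniquely mapped reads. Of 27 genes in the table that overlap one of the 10 or lie next to one, 22 were tested, 3 rose and 4 fell. This is 31.8% called, near the 34.4% of all tested genes. The genes that fell numbered 2 without mutant library 3 or 5. The gene next to *fs(1)Yb* rose with it. *fs(1)Ya*, which encodes a nuclear envelope protein needed in the early embryo, begins 128 bp downstream on the same strand. It stood at 0.199, 0.2195 and 0.149 CPM in the control libraries and at 8.10, 8.53, 10.7, 7.91 and 9.14 CPM in the mutant libraries. Its log2 fold change was 5.55 ± 0.19 (SE), or 46.7-fold, with an edgeR adjusted p of 1.3e-07, and the groups lay far apart. The control level of *fs(1)Ya* rested on 31 counts in all. On the other side of *fs(1)Yb*, *CG2701* starts 141 bp away on the opposite strand, and its log2 fold change was -0.03, not called, with an edgeR adjusted p of 0.762, and 0.05 without control library 2.

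At *vas*, the gene *solo* (CG33678 in the table), which acts in the cohesion of meiotic chromosomes, overlaps on the same strand with 563 bp of shared exon. It stood at 0.040, 0.128 and 0.083 CPM in the control libraries and at 1.13, 0.601, 1.06, 0.945 and 0.689 CPM in the mutant libraries. Its log2 fold change was 3.36 ± 0.41 (SE), close to the 3.34 of *vas*, with an edgeR adjusted p of 3.8e-04, and reads of the shared exons may belong to either gene. *vig*, a gene within *vas* on the opposite strand that shares no exon with it and whose protein binds the RNA interference complex, had means of 240.1 and 246.5 CPM. It was not called, with a log2 fold change of 0.04, which turned to -0.03 without control library 2, and an edgeR adjusted p of 0.632.

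At *spn-E*, *Pbp45* (CG9597 in the table) overlaps on the opposite strand without shared exons. It fell from 18.8 ± 0.25 (SD, n = 3) to 12.7 ± 1.02 CPM (SD, n = 5), a log2 fold change of -0.56 ± 0.07 (SE), with an edgeR adjusted p of 3.5e-04, and of 0.056 in the sums by described biological replicate. At *zuc*, *dgt2* (CG16969 in the table), which encodes a subunit of the augmin complex of the spindle, starts 54 bp away and runs in the opposite direction. It fell from 58.9 ± 3.57 (SD, n = 3) to 40.5 ± 0.98 CPM (SD, n = 5), a log2 fold change of -0.54 ± 0.05 (SE), with an edgeR adjusted p of 4.3e-05. Both genes of this divergent pair therefore fell, *zuc* by the larger log2 value, although the difference between them was not tested. Within 1000 bp, 7 of the 10 genes had such a divergent neighbour, and of these 7 neighbours, all tested, 3 were called, a share near the 34.4% of all tested genes. Besides *dgt2*, these were *ND-23* at *spn-E* and *CG12253* at *piwi*, each called in the direction of its pair. *ND-23* had a log2 fold change of -0.20 and an edgeR adjusted p of 0.0253, and *CG12253* had 0.23 and 0.00423. The call of *ND-23* was lost without mutant library 3 or 5.

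Exons shared with an opposite gene could in principle hold reads of either gene. *SCAR*, a regulator of actin, shares 191 bp of exon with *piwi*, stood at means of 82.9 and 86.0 CPM and was not called, with a log2 fold change of 0.05. In proportion to length, the shared stretch would hold 5.08 CPM of *SCAR* in control and 5.27 CPM in mutant discs, which is above the whole level of *piwi* in either group. *TTLL4A* (CG16833 in the table) shares 79 bp with *aub* and was not called, with a log2 fold change of 0.16. Its shared stretch would hold 0.401 CPM in control and 0.448 CPM in mutant discs, beside 0.317 and 0.641 CPM for *aub*. *CG34163* shares 67 bp with *zuc* and was not called, with a log2 fold change of -0.15. Without mutant library 4 it was called lower, with an edgeR adjusted p of 0.0364. For its part, *mael* shares 246 bp with *CG14451* and 1 bp with *CG14450*, neither of which was called, with log2 fold changes of 0.62 and -0.10. With all libraries, none of the genes sharing exons with *piwi*, *aub*, *zuc* or *mael* was called, and the part of shared reads in the levels of those 4 genes was not tested.

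**Figure D5:**
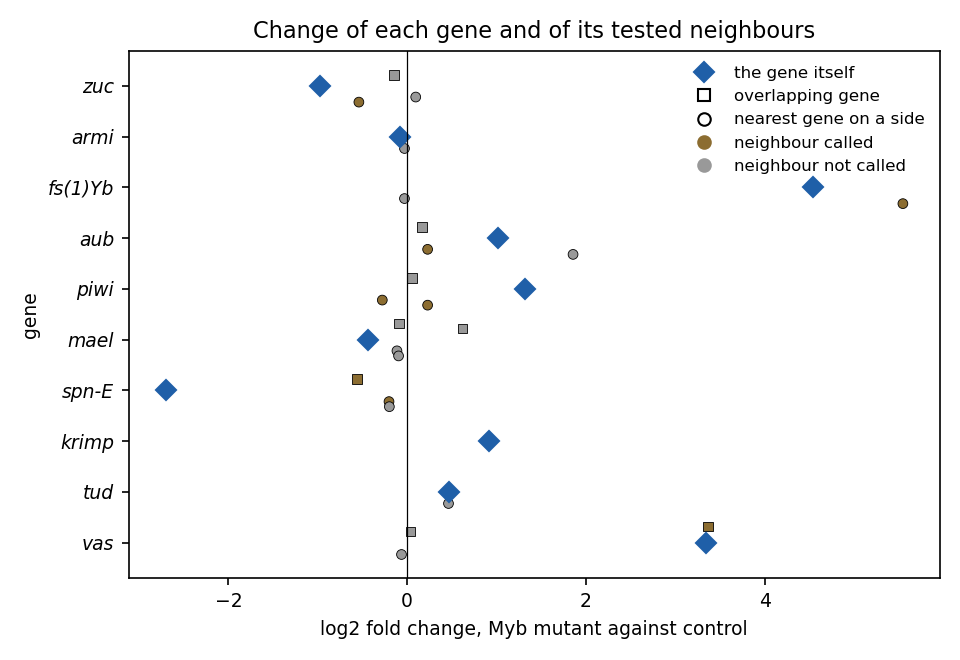
Log2 fold change, *Myb* mutant against control, of each of the 10 genes (diamonds), of tested genes that overlap it (squares) and of the nearest gene on each side (circles), with called neighbours in brown and others in grey. A nearest gene that was not tested is not drawn, and *krimp* had no tested neighbour. The neighbours *fs(1)Ya* at 5.55 and *solo* at 3.36 lie beside *fs(1)Yb* and *vas*, and the other called neighbours lie between -0.56 and 0.23.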

How the data were processed

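Per the labels and the methods, the authors trimmed reads with Trimmomatic (version 0.22 in the processing notes), aligned them with Bowtie2 version 2.1.0 to the exons of an older FlyBase gene set (release 5), and added the unique exon counts of eXpress up by gene. The deposited counts were raw and whole, for 14300 genes, of which 1773 were at 0 in all 8 libraries. The table also held fold changes and p-values of the authors' own DESeq2 comparison, which were not used. Library totals were 50562199 to 65322440, and the mitochondrial entry (0.574% to 1.34% of a library) did not enter the scaling. Counting error is not the limit for most of the genes named, whereas those with under 50 counts a library, such as *aub* and *nos*, are less precise.

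The fit used edgeR version 4.0.16 in R version 4.3.3 on all 8 libraries with genotype as the only term (TMM scaling, filterByExpr, glmQLFit, glmQLFTest), with Benjamini-Hochberg adjustment over the 9076 genes that passed. The SE of a log2 fold change was its size divided by the square root of F, and 95% intervals came from the same fit. On simulated data with 200 changed genes among these 9076, edgeR recovered 58% of 1.5-fold, 96% of 2-fold and 98% of 10-fold changes, with 12 false among 185 calls. The simulated libraries were drawn independently and held fewer changed genes than were called here, so these rates may not carry over. Alternatives were DESeq2 version 1.42.0, other scalings and filters, leaving out each library, sums by described biological replicate, and a replicate block, 16 in all.

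The 10 genes and the lists were chosen with earlier results of these data known. All 10 genes were named. Of the lists, genes were named where the edgeR adjusted p was under 0.05, the change at least 2-fold and the genotypes did not overlap, up to 4 in each direction by size. Neighbours were named where they overlapped or passed the same rule, and further ones were chosen after their values were seen. *Myb* was named as the targeted gene. Positions, strands and exon lengths come from the BDGP6 annotation of Ensembl release 115, not from the alignment build. In it, 12121 genes matched by identifier, 391 by symbol and 445 by a RefSeq synonym.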

Additional observations from a re-analysis of the deposited data

Results flagged for a closer look

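In the 5 mutant libraries, 5 of 50 genes examined had 1 library far from the rest, where chance gives about 1 in 20. For *bgcn*, library 4 was at 1.39 CPM, beside 1.06 to 1.10 CPM in the others. For *Hml*, library 4 was at 4.04 CPM, and the next highest was at 1.73 CPM. For *PPO2*, a prophenoloxidase gene of crystal cells, library 2 was at 12.8 CPM, and the next highest was at 0.686 CPM. For *TTLL4A*, which overlaps *aub*, library 4 was lowest at 39.46 CPM, and the next was at 43.77 CPM. For *BoYb*, library 2 was at 1.053 CPM, and the next highest was at 0.860 CPM. None of the 10 genes of the report had such a library.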

How the results depend on the processing

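*vas*, *spn-E*, *piwi*, *fs(1)Yb*, *zuc* and *krimp* were called in the same direction in all 16 alternatives. Leaving out each library gave 5 to 6 of the 10 genes higher and 3 to 4 lower. Library numbers 1 to 3 are shared by the genotypes in the labels but did not pair the libraries: deviations from the group means correlated at 0.39, -0.11 and -0.02. With the numbers as a replicate block, 4 of the 10 were higher and 2 lower, with adjusted p of 0.103 for *aub*, 0.0676 for *tud* and 0.146 for *mael*. That fit used the libraries with shared numbers, which is fewer samples, and called 744 of all genes higher and 651 lower (1534 and 1587 without the block). In it, the related lists had 7 higher and 13 lower (19 and 20 without), and neighbours had 2 lower (4 without). Sums by described biological replicate, with 1 control sample assumed to vary like the mutant samples, called 744 genes higher and 766 lower, with 12 lower in the related lists and 2 lower among neighbours. Leaving out each library gave 2 to 5 neighbours lower, with 2 without mutant library 3 or 5. Without control library 2, *vig* turned to -0.031, *CG2701* to 0.049 and *SoYb* to -0.070, and *SoYb* was -0.035 without mutant library 4. Leaving out each library gave -0.031 to 0.090 for *vig*, -0.092 to 0.049 for *CG2701* and -0.070 to 0.202 for *SoYb*, with none called. Under the block the calls of *nos*, *bol*, *BoYb*, *AGO2*, *pasha*, *salm*, *dpp*, *ptc* and *tsh* were lost too. The cause of these changes was otherwise not tested. Depth limits genes with under 100 counts in every library, such as *aub*, *nos*, *bam*, *osk* and *solo*. It also limits the control levels of *vas*, *swa* and *fs(1)Ya* and the mutant level of *spn-E*, each under 100 counts a library. For *piwi*, control libraries 1 and 2 held under 100 counts.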

Other observations

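Of 18 testis genes, 5 were tested and 2 fell, with none higher, which is 40% called, near the 34.4% of all tested genes. *topi*, a meiotic arrest gene, stood at 0.437, 0.439 and 0.611 CPM in the control libraries and at 0.054 to 0.199 CPM in the mutant libraries. Its log2 fold change was -1.86, with an edgeR adjusted p of 0.00583, and of 0.151 in the sums by described biological replicate. *bol*, a translation regulator of male meiosis, fell from 1.72 to 0.638 CPM, with an edgeR adjusted p of 0.00798, and of 0.0565 in those sums. *aly*, *nht* and *Mst84Da* had 0 counts in all 8 libraries.

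Among hemocyte genes, *Pxn* fell from 83.3 to 4.45 CPM, with an edgeR adjusted p of 2.9e-05, and *eater* (CG6124 in the table) fell from 35.3 to 0.874 CPM, with an edgeR adjusted p of 1.4e-04. *Hml* had a log2 fold change of -5.07 and an edgeR adjusted p of 4.2e-05. *PPO2* (CG8193 in the table) fell from 47.6 to 2.89 CPM, with an edgeR adjusted p of 0.027, a call that was lost when mutant library 3 or 4 or any control library was left out, with adjusted p of 0.0562 to 0.0724.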
